A study of Mus musculus with 4 samples.

Results

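Open chromatin of the paraventricular nucleus of the hypothalamus (PVH) held 825 regions whose peak ranked stronger in both AAV-Cre libraries than in both AAV-GFP libraries. They are 5.76% of the 14331 regions on chromosomes 1 to 19 with a peak in all 4 libraries of the series, and those shared regions are part of 65969 merged regions in all. A region was kept when the percentile of its best −log10 p within each library (0 for the strongest shared region, 100 for the weakest) was lower in both AAV-Cre libraries than in both AAV-GFP libraries and the group means differed by 25 points or more. The members were thus chosen by the deposited −log10 p values of these same 4 libraries, and every percentile, fold and −log10 q given for them is a description without a test. The mirror rule, both AAV-Cre percentiles higher by the same margin, kept 849 regions (5.92%), called the weaker-ranking regions here. The order of the libraries alone, with no margin, held for 2820 regions in the stronger direction (19.7%) and for 2829 in the weaker direction (19.7%). A margin of 30 points kept 498 stronger-ranking and 529 weaker-ranking regions. Percentiles taken within the whole deposited list of a library kept 144 stronger-ranking (1.00%) and 2551 weaker-ranking regions (17.8%), so the even balance of the counts belongs to ranking among shared regions only.

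The assay was ATAC-seq, which reads out accessible DNA as the places where a transposase can insert adapters. All mice were Otp fl/fl; Ai14, that is, they carried loxP-flanked alleles of Otp and a Cre-dependent reporter, and were 12 weeks old. The AAV-Cre group (2 libraries) received an adeno-associated virus that carries Cre, the recombinase that deletes loxP-flanked DNA in infected cells, and the AAV-GFP group (2 libraries) received a virus with a fluorescent protein in its place. The PVH was dissected 4 weeks after injection, and nuclei were prepared from the tissue with no sort for infected cells named in the labels. A peak list thus mixes infected and uninfected cells of all types, and fewer cells of a type cannot be told apart from less open chromatin per cell. The promoter that drives the virus and the number of animals behind a library were not stated, and the libraries of a group may be technical repeats of each other. The series was made to find regulators of Mc4r, the melanocortin receptor through which PVH neurons restrain feeding.

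Accessible DNA in a tissue falls into promoters, which lie at transcription starts and are open in most cell types, and distal elements such as enhancers, which lie inside or between genes and are often open in few cell types. Otp is a homeodomain transcription factor needed for the formation of neuroendocrine neurons of the PVH. NF-Y is a ubiquitous factor that binds the CCAAT box of promoters close to the transcription start.

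The sequences that follow carry the promoter comparison described further on. They are RefSeq promoter windows (GRCm38.p6, 250 bases before to 50 after an annotated start, read 5′ to 3′ on the strand of the gene), with any CCAAT or its reverse complement ATTGG in capitals. The first 4 are the stronger-ranking regions and the next 4 the weaker-ranking regions with the largest differences among those that overlap a promoter window, and they were chosen after the values were seen. None of the first 4 holds the box, whereas 3 of the next 4 hold it.
Senp7 promoter, chr16:56057280-56057579, plus strand: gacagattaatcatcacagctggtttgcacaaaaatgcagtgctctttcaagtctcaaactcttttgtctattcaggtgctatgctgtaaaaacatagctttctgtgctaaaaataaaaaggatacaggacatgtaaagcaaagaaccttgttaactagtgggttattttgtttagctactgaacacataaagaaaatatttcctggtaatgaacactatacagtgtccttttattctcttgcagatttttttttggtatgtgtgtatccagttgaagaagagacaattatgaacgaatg
Flcn promoter, chr11:59809990-59810289, minus strand: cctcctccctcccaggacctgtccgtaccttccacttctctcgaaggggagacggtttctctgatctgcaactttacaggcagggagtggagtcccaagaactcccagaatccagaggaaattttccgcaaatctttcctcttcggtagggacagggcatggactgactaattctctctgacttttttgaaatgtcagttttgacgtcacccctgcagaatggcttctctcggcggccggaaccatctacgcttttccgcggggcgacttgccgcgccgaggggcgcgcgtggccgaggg
Pakap promoter, chr4:57567580-57567879, plus strand: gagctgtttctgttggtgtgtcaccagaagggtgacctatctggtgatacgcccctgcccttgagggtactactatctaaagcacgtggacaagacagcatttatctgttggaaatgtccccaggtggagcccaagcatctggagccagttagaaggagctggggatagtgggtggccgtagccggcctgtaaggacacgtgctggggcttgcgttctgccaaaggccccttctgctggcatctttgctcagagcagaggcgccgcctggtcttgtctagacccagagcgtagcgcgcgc
Prickle2 promoter, chr6:92706135-92706434, minus strand: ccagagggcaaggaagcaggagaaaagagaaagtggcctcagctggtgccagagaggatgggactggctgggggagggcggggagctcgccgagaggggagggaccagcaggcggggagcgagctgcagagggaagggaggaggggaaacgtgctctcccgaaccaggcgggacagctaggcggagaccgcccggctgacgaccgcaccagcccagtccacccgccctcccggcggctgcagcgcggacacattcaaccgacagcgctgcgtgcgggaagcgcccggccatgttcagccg
Fam210b promoter, chr2:172345327-172345626, plus strand: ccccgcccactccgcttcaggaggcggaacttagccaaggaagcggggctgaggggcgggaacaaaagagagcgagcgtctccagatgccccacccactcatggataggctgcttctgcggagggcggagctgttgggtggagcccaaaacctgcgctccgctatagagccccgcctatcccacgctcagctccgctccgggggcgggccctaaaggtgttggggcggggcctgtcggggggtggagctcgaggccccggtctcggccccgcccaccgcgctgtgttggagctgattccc
Rpsa promoter, chr9:120127516-120127815, plus strand: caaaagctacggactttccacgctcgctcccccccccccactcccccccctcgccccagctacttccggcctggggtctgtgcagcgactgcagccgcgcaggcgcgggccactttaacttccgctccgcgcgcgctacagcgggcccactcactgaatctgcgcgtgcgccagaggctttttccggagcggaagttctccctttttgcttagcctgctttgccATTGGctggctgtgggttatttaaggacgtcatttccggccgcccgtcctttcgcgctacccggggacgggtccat
Mturn promoter, chr6:54681374-54681673, plus strand: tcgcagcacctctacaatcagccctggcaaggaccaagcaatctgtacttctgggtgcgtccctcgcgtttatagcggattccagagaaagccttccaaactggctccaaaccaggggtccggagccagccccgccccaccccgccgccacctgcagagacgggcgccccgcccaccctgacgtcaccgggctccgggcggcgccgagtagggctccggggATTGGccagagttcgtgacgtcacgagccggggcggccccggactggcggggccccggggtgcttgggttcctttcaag
Erh promoter, chr12:80644062-80644361, minus strand: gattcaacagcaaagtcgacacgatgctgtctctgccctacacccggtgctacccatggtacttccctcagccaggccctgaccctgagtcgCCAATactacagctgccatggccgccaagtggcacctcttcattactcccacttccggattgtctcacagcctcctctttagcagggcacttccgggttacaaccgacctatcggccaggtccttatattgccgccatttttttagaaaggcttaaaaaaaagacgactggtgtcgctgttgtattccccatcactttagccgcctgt

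The 4 stronger-ranking promoters belong to Senp7, a protease of SUMO chains, Flcn, the nutrient-sensing protein folliculin, Pakap, which joins paralemmin and kinase anchor sequences, and Prickle2, a planar cell polarity protein. The Senp7 region stood at percentiles 25.1 and 40.3 in the AAV-Cre libraries and at 88.8 and 88.1 in the AAV-GFP libraries. The Flcn region stood at 16.0 and 23.1 against 78.8 and 61.9. The Pakap region stood at 26.1 and 22.7 after AAV-Cre and at 62.6 and 87.2 after AAV-GFP, and the Prickle2 region at 29.9 and 24.3 against 68.7 and 86.5. Among the weaker-ranking promoters, that of Rpsa, which encodes a ribosomal protein, stood at 91.2 and 96.3 after AAV-Cre and at 31.1 and 31.4 after AAV-GFP, and that of Erh, a small nuclear protein, at 89.4 and 81.3 against 33.8 and 19.8. The other weaker-ranking promoters were those of Fam210b, a mitochondrial protein, at 93.5 and 85.9 against 11.1 and 36.6, and Mturn, known from neural differentiation in Xenopus, at 71.1 and 97.9 against 11.6 and 36.4.

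The members also held 1 microRNA hairpin of the RefSeq table. The region at chr7:61877637-61878251 spans the hairpin of Mir344 (chr7:61877770-61877864, minus strand). Its 2 mature arms are given with the seed, bases 2 to 8, in capitals, because this is the member whose transcript is known as a regulatory RNA.
mmu-miR-344-3p: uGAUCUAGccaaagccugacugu
mmu-miR-344-5p: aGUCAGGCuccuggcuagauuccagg
The Mir344 region ranked at 23.1 and 51.3 in the AAV-Cre libraries and at 59.1 and 70.5 in the AAV-GFP libraries. The arms have different seeds. The groups did not overlap, but the AAV-Cre libraries lay further apart from each other than the second of them lay from the nearest AAV-GFP library.

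The peak lists held 23384 and 26612 peaks in the AAV-Cre libraries and 57682 and 34100 peaks in the AAV-GFP libraries. The strength of a peak moved with the library over the whole set of shared regions. Their median −log10 q was 8.18 and 9.20 in the AAV-Cre libraries and 21.1 and 14.5 in the AAV-GFP libraries, and their median fold enrichment over local background was 6.55 and 6.85 against 8.94 and 7.98. Read depth is unknown. A stronger rank is therefore a place among the shared regions of a library and not an amount of accessibility, and the part of depth or background in it was not tested. Of the markers of the labelled tissue, 7 of 21 PVH transcription factor genes on these chromosomes had a shared region within 10 kb, among them Otp, Pou3f2 and Arnt2, and Sim1 and Sim2 had none. A shared region lay near 16 of 22 pan-neuronal genes, 10 of 20 astrocyte genes, 5 of 19 oligodendrocyte genes, 2 of 16 microglia and macrophage genes and 3 of 17 endothelial and mural genes.

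At the members themselves the median percentile was 42.5 and 42.2 in the AAV-Cre libraries and 81.8 and 80.7 in the AAV-GFP libraries. The difference of group means, AAV-Cre minus AAV-GFP, had a median of -32.0 points and reached -78.2, and the SD of that difference over all shared regions was 16.4 points. It was 40 points or more in size at 185 members and 60 or more at 23, and it lay under 30 at 327. Most members were middling among the shared regions in the AAV-Cre libraries and weak among them in the AAV-GFP libraries. The AAV-Cre mean lay under 10 at 10 members and under 25 at 125, while the AAV-GFP mean lay over 75 at 504. Their mean percentile over the 4 libraries had a median of 62.2, from 22.1 to 85.4, against a median of 56.4 at the weaker-ranking regions. Within whole deposited lists, which also hold the weaker peaks found in fewer libraries, the median percentile of the members was 27.9 and 24.3 in the AAV-Cre libraries and 33.1 and 47.4 in the AAV-GFP libraries. That of all shared regions was 33.5 and 29.7 against 14.4 and 23.1. On this scale the median difference was -12.4 points for the members and 9.53 for all shared regions, and 130 of the 825 members kept the margin.

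The libraries of a group often lay far apart at a member. The 2 AAV-Cre libraries differed by a median of 13.8 points and the 2 AAV-GFP libraries by 9.45, close to the 12.8 and 9.77 points over all shared regions. The nearest libraries of different groups were a median of 18.5 points apart, and at 65 members they were under 5 points apart. At 158 members the libraries of 1 group differed from each other by more than the group means did, the AAV-Cre libraries at 110 and the AAV-GFP libraries at 48. With 2 libraries against 2 there are 3 ways to split them, and no exact test could give a p below 0.333.

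The median fold enrichment of the members was 7.16 and 7.60 in the AAV-Cre libraries and 6.45 and 5.87 in the AAV-GFP libraries. In the median over all shared regions the AAV-GFP lists had the higher folds, so the order was the other way round at the members. The median −log10 q of the members was 9.41 and 10.6 after AAV-Cre and 10.4 and 7.56 after AAV-GFP. Their peaks had median widths of 362 and 393 bp in the AAV-Cre lists and 378 and 374 bp in the AAV-GFP lists, where those of all shared regions had 368 and 401 bp against 458 and 484 bp. In the authors' deposited group lists, called on the pooled libraries of a group, 824 of 825 members had a peak in the AAV-Cre pool and 825 in the AAV-GFP pool.

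The 12 members with the largest differences lay inside or outside genes and not at gene ends. The first was in the body of Lmx1b, a LIM-homeodomain transcription factor of midbrain and hindbrain neurons, at chr2:33616074-33616967. It ranked at 10.7 and 10.4 in the AAV-Cre libraries and at 94.9 and 82.6 in the AAV-GFP libraries, a mean of 10.6 ± 0.215 against 88.8 ± 8.72 (SD, n = 2 each). Its folds were 10.2 and 11.5 in the AAV-Cre libraries and 5.28 and 6.01 in the AAV-GFP libraries. Within whole lists its percentile was 6.73 and 5.73 in the AAV-Cre libraries and 55.5 and 49.5 in the AAV-GFP libraries, so it was weak among the shared regions of the AAV-GFP libraries and middling in their whole lists.

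**Figure D1:**
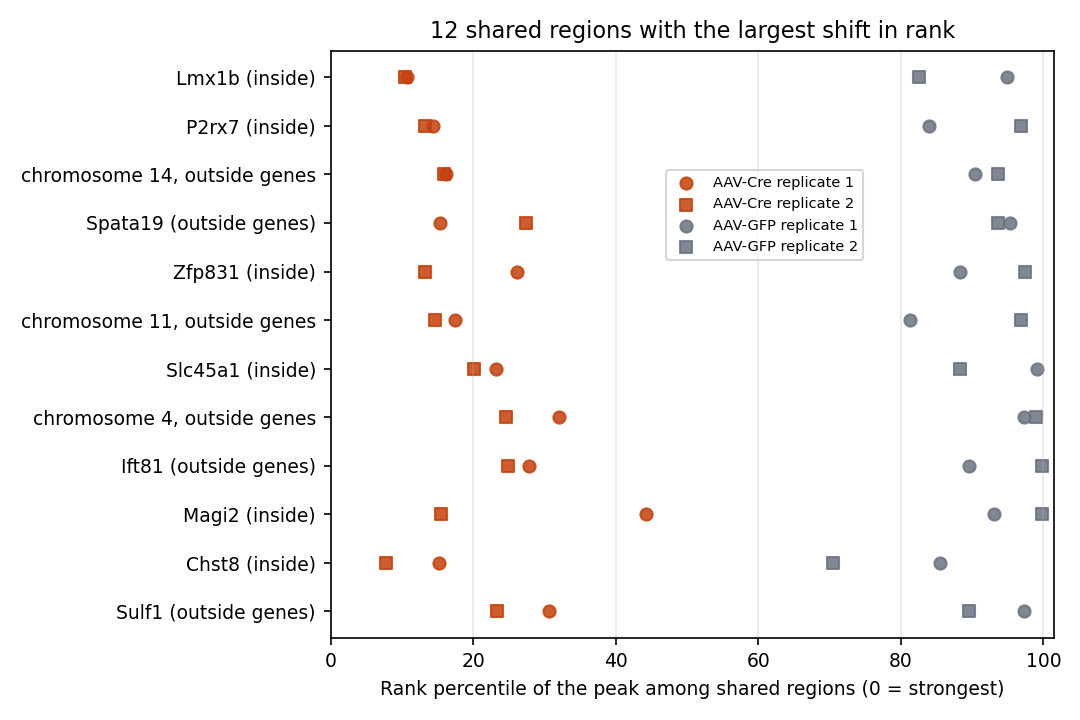
Rank percentile of the best peak (horizontal axis, 0 for the strongest shared region) in each library for the 12 stronger-ranking regions with the largest difference between group means. Orange points are AAV-Cre and grey points AAV-GFP libraries, with circles for replicate 1 and squares for replicate 2. AAV-Cre values lie at or below 44.3 and AAV-GFP values at or above 70.5 in all 12.

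The second was in P2rx7, an ATP-gated cation channel of immune cells and glia, at chr5:122668782-122669333, with percentiles of 14.4 and 13.2 after AAV-Cre and 83.9 and 96.9 after AAV-GFP. A region 17814 bp outside Ift81, a protein of intraflagellar transport, lay on the same chromosome at chr5:122521633-122522451, with 27.8 and 24.9 against 89.6 and 99.8. Among shared regions both ranked strong in each AAV-Cre library and near the end in each AAV-GFP library.

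Regions inside Zfp831, Slc45a1, Magi2 and Chst8 completed the intragenic ones. In Zfp831, a zinc finger gene, the percentiles were 26.1 and 13.3 in the AAV-Cre libraries and 88.3 and 97.4 in the AAV-GFP libraries. In Slc45a1, a sugar transporter of brain, they were 23.2 and 20.2 against 99.2 and 88.3. In Magi2, a synaptic scaffold protein, they were 44.3 and 15.5 against 93.1 and 99.9, and the AAV-Cre libraries lay far apart. In Chst8, a sulfotransferase that modifies the sugars of pituitary glycoprotein hormones, they were 15.2 and 7.74 against 85.5 and 70.5.

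The remaining members of the 12 lay outside genes. Sulf1, a heparan sulfate sulfatase, was 34314 bp from a region at chr1:12657455-12657883, with percentiles of 30.7 and 23.4 in the AAV-Cre libraries and 97.3 and 89.6 in the AAV-GFP libraries. Spata19, a sperm mitochondrial protein, was 59306 bp from one at chr9:27461017-27461388, with 15.4 and 27.4 against 95.3 and 93.7. No protein-coding gene lay within 100 kb of the other 3. That at chr14:46158832-46159190 ranked at 16.2 and 15.9 against 90.3 and 93.7, that at chr11:52641725-52642255 at 17.5 and 14.7 against 81.3 and 96.9, and that at chr4:10136887-10137719 at 32.0 and 24.6 against 97.3 and 98.9. The groups did not come near each other at any of these 5 regions.

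In the authors' deposited group lists the fold at the Lmx1b region was 12.1 in the AAV-Cre pool and 6.81 in the AAV-GFP pool, and at P2rx7 it was 12.6 against 7.57. Over the 12 regions these pool folds ran from 9.78 to 12.9 in the authors' deposited AAV-Cre list and from 5.05 to 8.05 in their AAV-GFP list.

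The 8 members with the strongest mean rank in the AAV-Cre libraries also lay inside or outside genes, and their AAV-GFP libraries often lay far apart. The strongest was 15153 bp outside Pthlh, which encodes parathyroid hormone-related protein, at chr6:147236665-147236956. It ranked at 1.32 and 0.757 in the AAV-Cre libraries and at 72.1 and 14.3 in the AAV-GFP libraries, so that the control libraries differed more from each other than the groups did. The region 9361 bp from Nkx2-6, a homeobox gene, had 5.47 and 6.25 against 18.96 and 67.8. Its fold was 14.9 and 14.9 after AAV-Cre and 17.9 and 7.93 after AAV-GFP, so by fold the first AAV-GFP library was the highest of the 4. Ranbp3l, a nuclear export factor, held a region with 11.8 and 1.92 against 50.9 and 57.2, and Nkain3, a partner of the sodium pump, one with 5.29 and 6.41 against 34.4 and 52.5. The region 14274 bp from Eapp, a nuclear phosphoprotein, ranked at 4.13 and 14.7 against 42.8 and 41.2. The other 3 had no gene within 100 kb, and 1 of them, at chr17:13589864-13590788, was the member without a peak in the AAV-Cre pool of the authors' deposited lists, although it ranked at 3.64 and 8.49 in the single AAV-Cre libraries and at 21.6 and 57.1 in the AAV-GFP libraries.

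The threshold of 25 points separated regions with like values. Just inside were regions in Wdr25 (-25.02), at the facing ends of Gas6 and Tmem255b (-25.01) and at those of Camta2 and Inca1 (-25). Just outside were regions at the end of Hps1 (-24.98), in Msantd2 (-24.98) and in Prkag2 (-24.97).

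The members lay away from gene ends more often than other shared regions. A gene end is here the start or end of a protein-coding gene with 1 kb on either side. It took in 224 of the 825 members (27.2%, 95% Wilson interval 24.2 to 30.3), against 537 of 849 weaker-ranking regions (63.3%, 59.95 to 66.4) and 7848 of all shared regions (54.8%, 53.9 to 55.6). The interval covers counting error over regions only, and regions are not replicates. With annotated transcription starts alone and chromosome 18 left out, 197 of 796 members (24.7%) lay within 1 kb of a start, against 56.9% of the weaker-ranking and 50.4% of all shared regions. Inside genes and beyond 1 kb of their ends lay 304 members (36.8%), against 17.9% and 25.7%. Outside genes lay 297 members (36.0%), against 18.8% and 19.5%. Among the 144 regions chosen by percentiles within whole lists, 11.1% lay at gene ends.

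**Figure D2:**
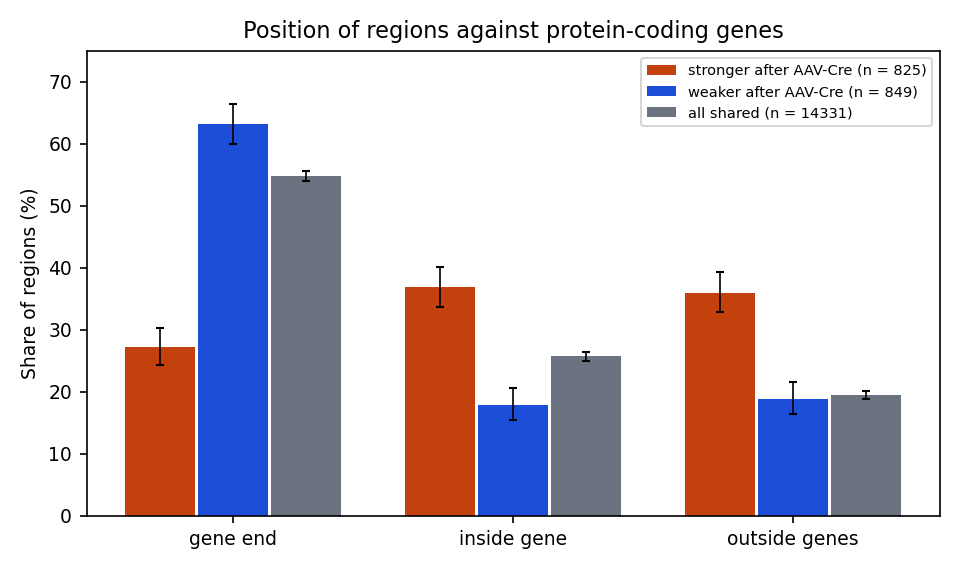
Share of regions (%) at gene ends, inside genes and outside genes, for stronger-ranking regions (orange), weaker-ranking regions (blue) and all shared regions (grey), with 95% Wilson intervals as bars. The stronger-ranking regions are the lowest of the 3 sets at gene ends, at 27.2%, and the highest in the other places.

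Of the members outside genes, 61 were within 10 kb of one, 152 were 10 to 100 kb away and 84 were further than 100 kb. The most remote class made up 10.2% of the members (8.30 to 12.4), against 4.59% of the weaker-ranking and 4.01% of all shared regions. The median distance of an outside region from the nearest gene was 36.0 kb for the members, 33.6 kb for the weaker-ranking regions and 28.8 kb for all shared regions. Long non-coding RNA genes overlapped 13.0% of the members, 15.7% of the weaker-ranking and 14.9% of all shared regions.

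Gene-end regions ranked stronger than other regions in every library, so the shares were also taken in bands of the mean percentile over the 4 libraries. Between 20 and 40 the share at gene ends was 39.6% in the members, 77.1% in the weaker-ranking and 65.3% in all shared regions. Between 40 and 60 it was 35.3%, 65.6% and 54.1% in the same order, between 60 and 80 it was 20.7%, 57.4% and 43.6%, and from 80 upward it was 11.7%, 28.0% and 34.9%. The members had the lowest share in each of the 4 bands. The weaker-ranking regions had the highest share in 3 of them.

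The share at gene ends followed the shift in rank over the whole set of shared regions, mainly on the stronger side. It was 15.1% (10.7 to 21.0) in the 185 regions with a difference beyond -40 points and 30.3% between -40 and -25. It was 42.9% between -25 and -15, 51.9% between -15 and -5 and 61.0% between -5 and 5. On the weaker side it was 58.4%, 58.0% and 61.3% in the bins up to 40 points, and 71.4% beyond them.

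**Figure D3:**
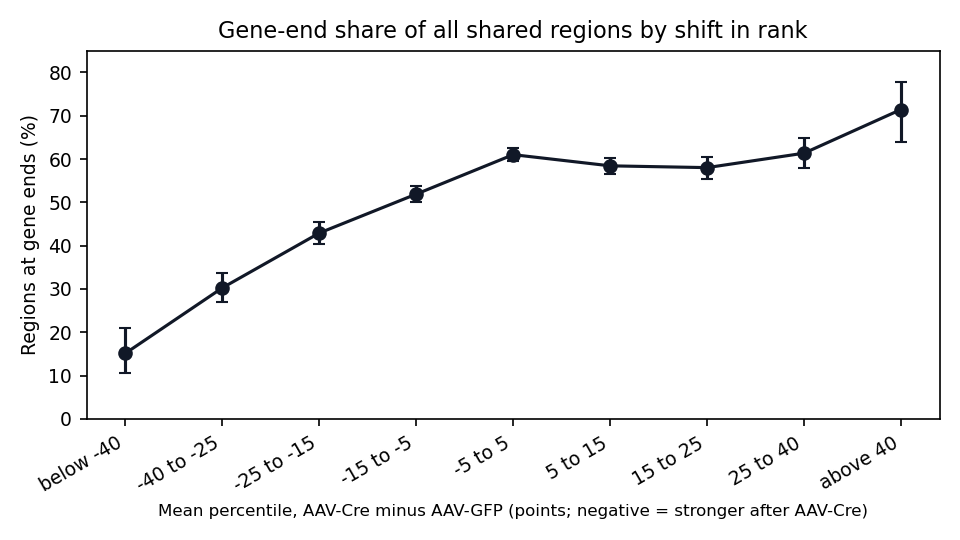
Share of shared regions at gene ends (%) in bins of the difference between group means of the percentile, AAV-Cre minus AAV-GFP in points, with 95% Wilson intervals. Points on the left ranked stronger after AAV-Cre, where the share is 15.1%, against 61.0% in the central bin.

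The same order appeared as a small shift of whole classes. Over all shared gene-end regions the median percentile was 41.3 and 41.9 in the AAV-Cre libraries and 38.4 and 39.2 in the AAV-GFP libraries. Over regions inside genes it was 59.1 and 60.4 against 64.4 and 63.0, and over regions outside genes 59.4 and 57.4 against 61.3 and 61.6. As a class, gene-end regions thus ranked a few points weaker and the others a few points stronger in each AAV-Cre library than in either AAV-GFP library. The part of depth and background in this shift was not tested.

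The 304 intragenic members fell in 297 genes with a median length of 104 kb, where the hosts of weaker-ranking regions had 81.6 kb and those of all shared regions 71.6 kb. Each host counted once, and 665 of the 2645 hosts of all shared regions held 2 or more regions. A small set of regions meets such genes more often than a count of genes does, so the 71.6 kb is not a like measure. In 12 genes there were 2 members each. They were the cell adhesion genes Cntnap2 and Cdh4, the membrane anchor gene Ank2, the receptor phosphatase gene Ptprn2, the kinase scaffold gene Ksr2, the glycolysis regulator gene Pfkfb3, Nav3, Cmip, Gse1, Eipr1, Fam13c and Ccdc33. The ends of these host genes stood much like other gene ends. A shared gene-end region existed for 160 of the host genes, 169 regions in all, with a median difference of 1.53 points. At the ends of the host genes of all shared regions that median was 0.670 points. Members were 3 of the 169, where 224 of all 7848 shared gene-end regions were members, so these values do not mark out the host genes.

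Members were spread over the genome. Their share of shared regions ran from 4.48% on chromosome 14 to 7.42% on chromosome 10. Another member lay within 100 kb of 114 of them (13.8%), and another weaker-ranking region lay as near to 13.5% of the weaker-ranking regions. The members formed 711 single regions, 43 groups of 2, 8 groups of 3 and 1 group of 4. The group of 4 lay on chromosome 6 and ran from 22939 bp outside Pdia4, a protein disulfide isomerase, through a second region 7445 bp outside it and 1 inside Zfp786 to the end of Zfp282. At the Zfp282 end the percentiles were 21.6 and 12.7 in the AAV-Cre libraries and 70.2 and 44.2 in the AAV-GFP libraries. A group of 3 on chromosome 13 ran from inside Shc3, a neuronal adaptor protein, to the facing ends of Secisbp2 and Cks2, with differences of -53.8, -25.2 and -35.2 points. A group of 3 at Myo18b, a muscle myosin, had -45.0, -35.1 and -33.1 points, and there the AAV-Cre libraries stood at 81.2 and 31.5 in the third region. Zfp786 and Zfp282 are neighbouring zinc finger genes.

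The summits of the members were a little less fixed than those of other shared regions. The strongest peaks of all 4 libraries had their summits within 100 bp of each other at 344 members (41.7%, 38.4 to 45.1), against 44.9% of the weaker-ranking and 49.0% of all shared regions. The median span of the 4 summits was 119 bp at members and 108 bp at weaker-ranking regions. With whole-list percentiles the share at the members was 24.3%. The merged regions had a median width of 553 bp at members, 608 bp at weaker-ranking and 623 bp at all shared regions.

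Where members did reach a promoter, fewer of the promoters held a CCAAT box. A RefSeq promoter window overlapped 176 members, 451 weaker-ranking regions and 6571 shared regions, counted with 1 window a region. CCAAT, on either strand, was found in 34 of the 176 member windows (19.3%, 95% Wilson interval 14.2 to 25.8), as in the absence of capitals in the Senp7, Flcn, Pakap and Prickle2 sequences. It was found in 233 of the 451 weaker-ranking windows (51.7%, 47.1 to 56.2), in 2799 of the 6571 shared windows (42.6%, 41.4 to 43.8) and in 38.1% of all 20085 windows of protein-coding genes. This motif was singled out after the values were seen, among 18 motifs searched. The excess at weaker-ranking regions depended on the setting. With whole-list percentiles the weaker-ranking regions had CCAAT in 37.0% of windows and gene ends in 50.8% of regions, both below all shared regions, and without AAV-Cre replicate 2 they had CCAAT in 41.4% against 42.3%. The stronger-ranking regions of the whole-list setting had 7 windows, too few to read.

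**Figure D4:**
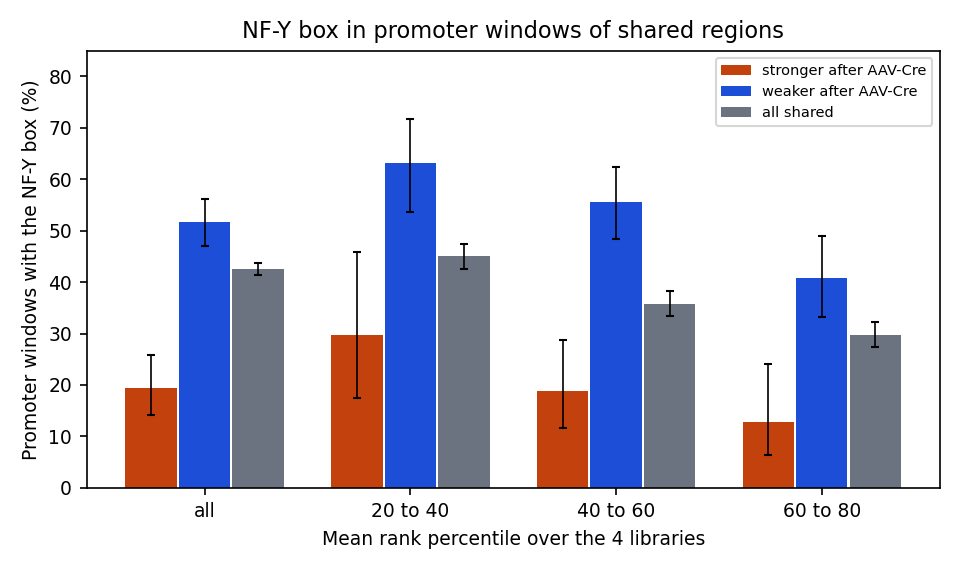
Share of promoter windows (%) with the NF-Y box in stronger-ranking (orange), weaker-ranking (blue) and all shared regions (grey), for all windows and for 3 bands of the mean rank percentile, with 95% Wilson intervals. The stronger-ranking regions have the lowest share in each band shown, with 29.7%, 18.8% and 12.7%.

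Peak strength itself went with the box, so the bands matter here too. From 20 to 40 in mean percentile the box was in 29.7% of member windows, 63.2% of weaker-ranking windows and 45.1% of shared windows. From 40 to 60 it was in 18.8%, 55.6% and 35.8%, and from 60 to 80 in 12.7%, 40.8% and 29.7%. Above 80 there were 4 member windows and 7 weaker-ranking windows, which is too few to read. Base composition was alike, with a median GC content of 61.0%, 62.0% and 62.7% and a median of 23 CpG dinucleotides in each of the 3 sets. Windows that lay wholly inside the region gave 13.9%, 55.2% and 44.8%.

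In each library, shared promoters with CCAAT ranked stronger than those without. Their median percentile was 28.8 and 30.2 in the AAV-Cre libraries and 24.9 and 25.2 in the AAV-GFP libraries. Promoters without the box had 45.5 and 46.0 against 45.2 and 45.3. The promoters with the box thus lay a few points weaker in both AAV-Cre libraries, and the medians of those without it were nearly level.

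Other promoter motifs differed less between the sets. The GC box of Sp and KLF factors, GGGGCGGGG, was in 19.9% of member windows (14.7 to 26.4), 31.5% of weaker-ranking windows (27.4 to 35.9), 24.2% of shared and 15.7% of all windows. The ETS site CCGGAAGT was in 6.82%, 13.3%, 9.68% and 5.28% in the same order. The NRF1 site was in 16.5%, 13.5%, 12.7% and 6.55%, and the proneural E-box CAGATG in 15.9%, 8.65%, 10.4% and 14.6%. For the ETS, NRF1 and CAGATG sites the intervals of members and weaker-ranking regions overlapped. For CAGATG the member interval (11.2 to 22.0) only just reached the weaker-ranking one (6.39 to 11.6). It lay just above that of shared windows (9.66 to 11.1). TAATTA, a palindrome that homeodomain proteins such as OTP can bind, was in 1 member window (0.568%), 2.00% of weaker-ranking, 1.77% of shared and 4.48% of all windows. The E-box CACGTG was in 13.6% of member windows and 10.4% of shared windows, and the CTCF core in 15.3% and 14.4%. In the same order, the CREB/ATF site TGACGTNA was in 8.52% and 6.24%, and its full form TGACGTCA, which it contains, in 4.55% and 4.06%. The MEF2 site was in 2.27% and 2.74%, AP-1 (TGANTCA) in 1.70% and 3.59%, and the POU octamer ATGCAAAT in 0.568% and 1.43%. The RFX site GTTGCCATG, the SOX site AACAATGG and the long sites of YY1, ZNF143 and NFI were in 0 of the 176 member windows. Each of these sites was in at most 2.66% of the weaker-ranking and 1.80% of shared windows. Both strands were searched, and a match is a string of letters and not a bound site.

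The summits at member promoters lay further downstream in the median than those at other shared promoters. The median position of the summit against the start was -3 and -3.5 bp in the AAV-Cre libraries and -32.5 and 8.5 bp in the AAV-GFP libraries, where a negative value lies upstream. At weaker-ranking promoters it was -50 and -54 bp against -61 and -54 bp, and at all shared promoters -41 and -43 bp against -50 and -46 bp. The quartiles were wide and overlapped. In the first AAV-Cre library they were -68.5 and 105 bp for the members and -123 and 47 bp for all shared promoters, so the medians show a shift and not a smaller distance from the start.

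**Figure D5:**
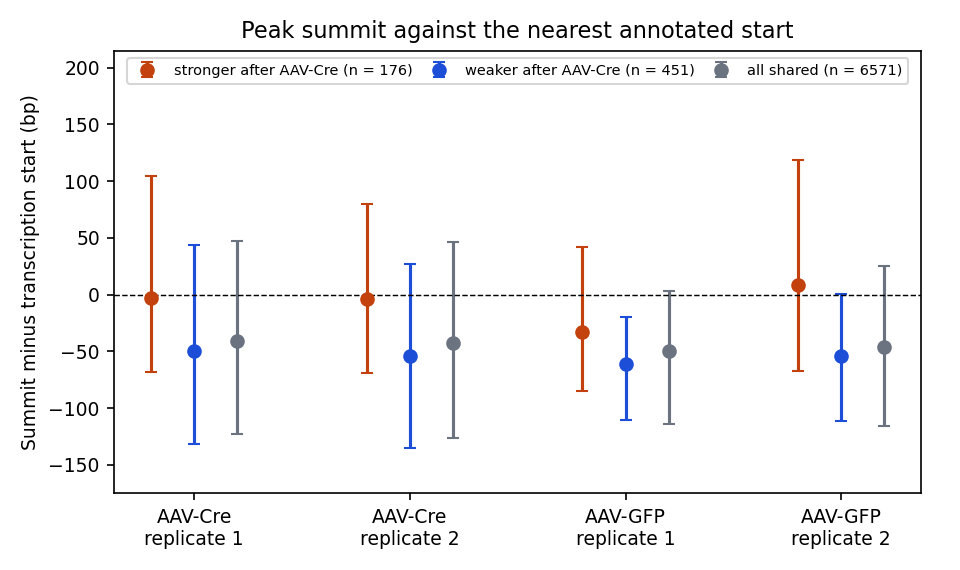
Position of the peak summit against the nearest annotated transcription start (bp, negative upstream) in each library, as median (point) and quartiles (bar), for stronger-ranking (orange), weaker-ranking (blue) and all shared regions (grey). In every library the median of the stronger-ranking regions lies furthest downstream of the 3 sets, from -32.5 to 8.5 bp, with quartiles that overlap those of the other sets.

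Genes of the PVH and feeding lists were few among the members. Near genes of 21 lists, 479 shared regions lay within 10 kb, of which 30 were members (6.26%) and 26 weaker-ranking (5.43%), against 5.76% and 5.92% of all shared regions. The lists as a whole thus held members at about the background share. A place in a list does not show that a gene is active in PVH neurons. In the list of PVH peptides and hormones, 2 of 8 shared regions were members. One overlapped the end of Ghrh, which encodes growth hormone-releasing hormone, at chr2:157347360-157348151. Its percentiles were 44.1 and 62.9 in the AAV-Cre libraries and 93.9 and 93.3 in the AAV-GFP libraries. The other lay 6719 bp from Sst, which encodes somatostatin, at chr16:23898061-23898738, with 32.4 and 36.0 against 64.5 and 56.6. With whole-list percentiles the difference was -26.4 points at Ghrh and -3.28 at Sst, which ends the call at Sst. Among shared regions the groups did not overlap at either, and the Ghrh peak was in the weaker part of the ranking in 3 of 4 libraries. The −log10 p itself was lower after AAV-Cre at Sst, at 15.1 and 15.4 against 19.1 and 15.9 in the AAV-GFP libraries. At Ghrh it was higher after AAV-Cre, at 12.5 and 10.7 against 9.20 and 7.44.

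Among melanocortin and energy balance genes, 2 of 20 shared regions were members. The end of Mrap2, an accessory protein of melanocortin receptors, had a region at chr9:87144060-87144603 with percentiles of 26.1 and 11.2 in the AAV-Cre libraries and 40.2 and 50.01 in the AAV-GFP libraries. The end of Ntrk2, the receptor of brain-derived neurotrophic factor, had one at chr13:58806289-58807113 with 19.3 and 21.7 against 40.2 and 53.1. In the authors' deposited group lists the folds at these regions were 11.6 in the AAV-Cre pool against 10.9 in the AAV-GFP pool at Mrap2, and 7.31 against 7.30 at Ntrk2. With whole-list percentiles the differences were -5.73 points at Mrap2 and -5.88 at Ntrk2, which ends both calls. Of the 34 regions chosen for their difference, their rank after AAV-Cre or a listed gene, 13 kept 25 points or more on that scale, the 12 with the largest differences and Ghrh. Most of these 13 were no longer shared regions under stricter lists. Only Chst8 remained in lists reduced to equal length, and only Lmx1b and Chst8 among peaks of −log10 q 5 or more. No region within 10 kb of Mc4r was a member. Of the 12 shared regions near PVH transcription factors, Otp included, 0 were members and 0 were weaker-ranking. Their median difference was -10.9 points, where that of all shared regions was -0.0140.

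Several neuronal genes had members away from their ends. Slc17a6, the vesicular glutamate transporter of hypothalamic neurons, had one in its body with mean percentiles of 26.6 in the AAV-Cre libraries and 66.7 in the AAV-GFP libraries. Rbfox3, the gene of the neuronal nuclear antigen NeuN, had 1 inside (58.0 against 96.0) and 1 at 4938 bp (48.7 against 89.9), and Nefh, a neurofilament subunit, 1 at 7042 bp (29.3 against 71.6), which lay nearer to Thoc5, at 2323 bp. Slc17a6, Rbfox3 and Nefh are named here after their values were seen. In all, 3 of 29 regions near pan-neuronal genes and 2 of 7 near genes of glutamate and GABA identity were members.

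Receptor and adhesion genes had members at their ends too. The kainate receptor gene Grik2 stood at 44.2 and 51.8 in the AAV-Cre libraries and 74.7 and 77.3 in the AAV-GFP libraries. Sema5a, a semaphorin of axon guidance, stood at 76.7 and 32.8 against 95.1 and 79.6, and its first AAV-Cre library lay close to the second AAV-GFP library. Members were 3 of 52 regions near glutamate and GABA receptor genes and 5 of 75 near axon guidance and adhesion genes, where weaker-ranking regions were 1 and 6.

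Genes of other cell types had few members. One overlapped Pigs and lay 405 bp from Aldoc, an aldolase of astrocytes (13.5 and 25.2 in AAV-Cre libraries, 57.4 and 34.2 in AAV-GFP libraries). A region in the window of Vtn, a gene of mural cells, also overlapped Sarm1, a neuronal enzyme of axon degeneration, with 20.4 and 16.9 against 58.8 and 34.9. Members were 1 of 14 regions near astrocyte genes, 1 of 5 near oligodendrocyte genes (6621 bp from Olig1, named after its values were seen) and 1 of 4 near endothelial and mural genes. They were 1 of 2 near microglia and macrophage genes, 0 of 5 near genes of oligodendrocyte precursors and 0 of 6 near ependymal genes. Weaker-ranking regions were 1 near ependymal genes and 0 in the other lists of cell types named here. These counts are too small to read a change of cell makeup from, and its part in the ranks was not tested.

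Signalling, stress and other lists held members at 0% (housekeeping) to 7.14% (inflammation and interferon), against 5.76% of all shared regions. Rela, a subunit of NF-κB, had a member at its end with 38.1 and 23.3 in the AAV-Cre libraries and 65.6 and 52.7 in the AAV-GFP libraries, 1 of 14 regions near inflammation and interferon genes. In that list 2 regions were weaker-ranking, at the end of Irf9 (mean percentiles of 81.5 after AAV-Cre and 52.1 after AAV-GFP) and 5860 bp from Irf1 (97.2 against 70.1), which are named after their values were seen. Smad7, an inhibitor of TGF-beta signalling, had one with 31.5 and 35.1 against 74.9 and 74.8, 1 of 2 members among 32 regions near Wnt, Notch, Hedgehog and TGF-beta genes. Members were 1 of 37 regions near activity-regulated genes, 1 of 25 near cell stress and DNA damage genes, 2 of 35 near clock genes, 2 of 73 near chromatin regulators and 0 of 22 near housekeeping genes. Weaker-ranking regions were 0, 3, 3, 5 and 1 in those lists. Their share ran from 0% near activity-regulated genes to 12.0% near cell stress and DNA damage genes. Near inflammation and interferon genes it was 14.3%, on 2 regions, against 5.92% of all shared regions.

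By gene family, the ends of 263 genes touched a member and those of 622 a weaker-ranking region, of 8849 with a shared region (2.97% and 7.03%). Ion channels had 4 genes at members and 4 at weaker-ranking regions of 43. Solute carriers had 7 at members and 15 at weaker-ranking regions of 150, respiratory chain subunits 2 and 8 of 64, ribosomal proteins 1 and 5 of 65, and zinc finger genes named Zfp 5 and 9 of 238. Histone genes had 1 at members, H4c4, and 11 at weaker-ranking regions of 60. Ubiquitin ligases and proteases had 4 and 17 of 173. A region that joined the ends of neighbouring genes counted for each of them, as at 37 members, and histone genes lie in clusters, so these genes are not independent.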

How the data were processed

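ATAC-seq peak lists of 2 AAV-Cre and 2 AAV-GFP libraries and 1 pooled list per group were used as the authors deposited them. Per the submitters' processing notes, the tools were MACS2, Bowtie2, Trim Galore and FastQC, on mm10. For versions, read filters and any shift of reads, nothing is given in the sources used here. In the deposited lists, each peak has the authors' fold enrichment (a ratio over background), −log10 p-value, −log10 q-value and a score, the whole part of 10 times −log10 q with 32 exceptions. Read counts were not used.

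Peaks on chromosomes 1 to 19 were merged at 1 bp overlap with Python 3.11.15 and pandas 2.3.3. A percentile is the mid-rank of the best −log10 p over the number of shared regions, with ties averaged. Genes, promoters and hairpins came from RefSeq tables of GRCm38.p6 (20665 protein-coding genes and 20085 promoter windows on these chromosomes, of which 0 on chromosome 18). Intervals are 95% Wilson intervals. The ranking was tested on simulated lists of equal length and noise. That cannot show how the rule behaves with lists of unequal length and strength, as these are. The members and all lists were chosen with earlier results of these data known. Regions named are the 12 with the largest difference, the 8 strongest after AAV-Cre, genes of the lists at gene ends or, for PVH and melanocortin lists, within 10 kb, regions at the threshold, and 3 groups (that of 4, and 2 of the 8 groups of 3, taken by mean difference). Same-numbered libraries were checked for pairing. Alternatives were the ranking measure, list length, margin, merging, window and leaving out libraries. A few named genes and 1 gene family are not reported here.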

Additional observations from a re-analysis of the deposited data

How the results depend on the processing

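Depth is unknown, and the ranks rest on 2 libraries a group. In all 13 alternative ways to choose the members, the share at gene ends (11.1% to 39.5%) and that of promoters with CCAAT (19.02% to 28.3% in 12, and 0 of 7 windows with whole lists) stayed below the share in all shared regions of the same setting (47.9% to 61.5%, and 41.7% to 45.9%). The CCAAT alternatives and the band of 40 to 80 in mean percentile (26.9% at gene ends) were added with the data in view. For the 825 members, percentiles within whole deposited lists gave 144, with 2551 weaker-ranking regions in place of 849, and a margin of 30 points gave 498. Leaving out a library gave 1133 to 1796, the highest without AAV-Cre replicate 1 (1668 without AAV-Cre replicate 2 and 1401 without AAV-GFP replicate 2). Then 1 library less has to keep the order, and the shared regions also rose in number, to between 14530 and 18144. Equal list lengths gave 689, of which 66.9% overlapped the members. Against 27.2%, the share at gene ends was 33.5% when ranked by fold, 11.1% with whole lists, 31.1% and 23.3% with margins of 20 and 30 points, 39.0% in lists reduced to equal length, 39.5% among peaks of −log10 q 5 or more, 30.9% with a window of 2.5 kb and 28.5% to 33.9% without a library. Against 41.7%, the share with summits within 100 bp was 24.3% with whole lists, 52.2% in equal lists, 54.7% among the peaks of high −log10 q, and 52.8% to 55.6% when a library was left out, where fewer summits have to meet. It was 14.4% within 50 bp and 73.7% within 200 bp. Against 19.3%, the share with CCAAT was 0% with whole lists, on 7 windows only, 13.9% for windows wholly inside the region and 25.1% to 28.3% without a library. The causes of these moves were not tested. With the replicate block, same-numbered libraries compared, there were 860 regions, 27.0% at gene ends, 19.02% with CCAAT and 42.0% with summits within 100 bp. Over regions, the deviations of same-numbered libraries from their group means had a correlation of r = -0.0173, and the numbers were therefore taken as names only. The weaker-ranking regions exceeded all shared regions at gene ends in 12 of 13 settings and in CCAAT in 11. In 10 settings that can change a difference, 0 values at the 34 chosen regions changed direction. That count is no test of the direction, because the regions were chosen by this same order of the libraries. Leaving out a library keeps the order apart from re-ranking, and the other settings rank the same peaks or part of them. With whole lists 30 of 34 moved by more than the spread between libraries, and in the other settings 43 of 278 did.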
